A study of Homo sapiens with 60 samples.

Results

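SW1783, an established human astrocytoma cell line, was treated for 24 h with an ethanol extract of 1 of 2 single herbs at the same mass concentration, 500 µg/mL, and the 2 responses were compared directly. Menthae Herba is the above-ground part of mint, and Saposhnikoviae Radix is the root of Saposhnikovia, both used in East Asian herbal medicine. The comparison covered 6 of the 60 libraries of the series, chosen by their titles: 3 of Menthae Herba at the high dose and 3 of Saposhnikoviae Radix at the high dose. All 6 carry the same set number, 12, in their library names, as do 3 libraries of each herb at 100 µg/mL and 3 at 20 µg/mL, which served as the lower doses of the same pair. The 3 vehicle libraries (DMSO, 24 h, no extract) belong to another set, named D1, so that a difference from vehicle cannot be told apart from a difference between sets, whereas the comparison of the herbs lies within 1 set. No group carries a transgene or a knockout, and all groups were grown in L-15 medium with serum. Equal mass does not mean equal amounts of any constituent, and the sources used here do not give the composition of the extracts. The labels number the replicates without saying whether they were separate cultures, so p-values measure a spread between libraries, which may be technical. In the main edgeR fit this spread was estimated over all 60 libraries and not from the 6 compared alone.

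Most tested genes of the integrated stress response were higher with Menthae Herba, though they were a small part of all genes called. In this response, kinases that sense amino acid shortage, unfolded protein, haem shortage or viral RNA phosphorylate the initiation factor eIF2alpha, which lowers bulk translation while the messenger RNA of the transcription factor ATF4 is translated more. ATF4 then raises genes of amino acid synthesis, import and tRNA charging, together with regulators such as CHOP (DDIT3) and TRIB3 that limit the response. Most tested collagens were lower, as were many other genes of the extracellular matrix, the network of collagens, glycoproteins and proteoglycans that cultured glioma cells secrete and to which they attach through integrins.

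Library totals of the 6 ran from 22765592 to 36439544 expected counts, and those of vehicle from 25186495 to 26477745. In 2 libraries, Menthae Herba replicate 3 and Saposhnikoviae Radix replicate 2, short transcripts took up more of the counts: for each doubling of transcript length the deviation of log2 CPM, the counts scaled to library size, from the vehicle mean changed by -0.51 and -0.66, against -0.02 to -0.14 in the other 4. With 1 such library in each herb, the slope did not separate the herbs (-0.25 ± 0.23 against -0.23 ± 0.37, SD, n = 3; exact permutation test, two-sided, p = 1, where 3 against 3 cannot go below 0.1). In the other 4 it did not overlap, at -0.093 and -0.139 with Menthae Herba and -0.017 and -0.018 with Saposhnikoviae Radix. Leaving out the 2 libraries therefore does not free the comparison of a difference in slope. The share of counts on mitochondrially encoded genes was 7.83% ± 0.93 with Menthae Herba, 8.14% ± 1.81 with Saposhnikoviae Radix and 10.2% ± 0.11 with vehicle (SD, n = 3; exact permutation test between the herbs, two-sided, p = 0.9). Of the markers of astrocytes and glioma, VIM, CD44 and CHI3L1 were high in every library. EGFR, SOX9, SLC1A3, PDGFRA, NFIA, NES and ID4 had 33950, 10380, 3463, 2258, 1480, 1272 and 435 counts in the 6 libraries together. SLC1A2, GFAP, OLIG2, S100B, ALDH1L1 and SOX2 had 38, 29, 23, 21, 5 and 2, and AQP4 and FABP7 had 0. The astrocyte markers were thus split, with GFAP, S100B, ALDH1L1 and AQP4 at or near 0 and SOX9 and SLC1A3 expressed. Of the 12 tested markers of astrocytes and glioma, 6 were lower with Menthae Herba and 0 higher (median log2 fold change -0.505). Of all genes 8.06% were lower and 6% higher. The 6 were CD44, CHI3L1, PDGFRA, NFIA, SLC1A3 and ID4, and 3 of them stayed called whichever 1 library was left out. Of the leukocyte markers, CD3E and AIF1 were at 0 counts in the 6 libraries together, ITGAM, LYZ and CD14 had 6, 9 and 71, and CSF1R, PTPRC and CD68 had 491, 878 and 26060. PTPRC was lower with Menthae Herba (-1.33, adjusted p = 0.00336), at 4.26, 2.84 and 1.32 CPM against 8.58, 2.47 and 9.90, with overlapping groups. Of the hepatocyte markers, TTR was at 0 counts, APOB, ALB and APOA1 had 2, 4 and 8, and CYP3A4 and SERPINA1 had 50 and 996. Of the mesenchymal markers, 8 of 10 tested were lower with Menthae Herba, among them COL1A1, COL3A1 and THY1, beside 8.06% of all genes. The summed level of the 10 was 2010 to 2703 CPM with Menthae Herba, 4317 to 5328 with Saposhnikoviae Radix and 6620 to 6985 with vehicle. In RNA from whole cultures, fewer cells of a kind and less RNA per cell cannot be told apart.

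Between the herbs, 1162 genes were higher with Menthae Herba (6% of the 19366 tested) and 1560 were lower (8.06%), or 14.1% in either direction (edgeR's quasi-likelihood test, Benjamini-Hochberg adjusted p under 0.05). All fold changes below are Menthae Herba relative to Saposhnikoviae Radix, on a log2 scale, unless stated, so that a positive value means a higher level with Menthae Herba. Levels are CPM scaled by TMM (trimmed mean of M values, a correction for library composition). The 3 libraries of one herb lay wholly above those of the other in 1488 genes (7.68%) and wholly below in 1352 (6.98%), and the median log2 fold change of all genes was -0.04. Without the 2 libraries rich in short transcripts, 1058 genes were higher (5.46%) and 1658 lower (8.56%). Of the genes first called, 753 were again higher (64.8% of them, and 71.2% of the second list) and 1176 again lower (75.4% and 70.9%), with 0 called in the opposite direction. The counts rest on a spread estimated over all 60 libraries: when only the 6 libraries were fitted, edgeR called 0 of 16209 genes (smallest adjusted p = 0.0822, 1086 genes at an unadjusted p under 0.05), while DESeq2 on all libraries called 1140 higher and 1796 lower. Fitted alone, the 4 libraries not rich in short transcripts gave 2223 higher and 2814 lower genes, and leaving out Saposhnikoviae Radix replicate 2 alone gave 2162 higher and 2319 lower.

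CHAC1, ATF4, DDIT3 and ATF3, at the core of the integrated stress response, were higher in each Menthae Herba library than in any Saposhnikoviae Radix library. CHAC1, an enzyme that degrades glutathione (chr15:40952962-40956519, GRCh38), had the largest positive log2 fold change among the genes named. Its level was 47.00, 54.7 and 66.7 CPM in Menthae Herba replicates 1 to 3, 5.63, 9.44 and 4.84 in those of Saposhnikoviae Radix and 6.97, 8.11 and 7.51 with vehicle (log2 fold change 3.10, SE 0.17, adjusted p = 2.69e-17). The highest Saposhnikoviae Radix library was the one rich in short transcripts, and it was still far below every Menthae Herba library. ATF4 itself, the central transcription factor, was at 360.4, 414 and 463 CPM with Menthae Herba and 149, 173 and 139.7 with Saposhnikoviae Radix (log2 fold change 1.42, SE 0.11, adjusted p = 7.44e-13). For DDIT3, which encodes the pro-apoptotic factor CHOP, Saposhnikoviae Radix replicate 2 stood apart: levels were 74.4, 71.1 and 123 CPM against 17.6, 55.1 and 16.5 (log2 fold change 1.60, adjusted p = 1.27e-05, and 2.09 without the 2 libraries rich in short transcripts). ATF3, a stress-induced repressor of the same family, was at 10.1, 9.58 and 11.03 CPM against 2.78, 1.75 and 3.29 (log2 fold change 1.95, SE 0.16, adjusted p = 3.88e-12). For each of these 4 genes Saposhnikoviae Radix replicates 1 and 3 lay near vehicle.

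The promoters of the 3 higher members that hold the C/EBP-ATF response element, the composite site that ATF4 can bind with a C/EBP partner, are shown because these genes moved together. The sequences are from RefSeq (GRCh38.p14), the 250 bases before the start, 5′ to 3′ on the gene's strand, with the match in capitals.
CHAC1, chr15:40953221-40953470, plus strand: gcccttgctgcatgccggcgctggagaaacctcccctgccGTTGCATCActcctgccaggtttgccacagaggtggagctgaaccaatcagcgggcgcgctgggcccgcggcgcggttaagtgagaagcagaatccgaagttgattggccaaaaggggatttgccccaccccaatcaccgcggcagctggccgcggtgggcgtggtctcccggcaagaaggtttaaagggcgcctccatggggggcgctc
ATF3, chr1:212565157-212565406, plus strand: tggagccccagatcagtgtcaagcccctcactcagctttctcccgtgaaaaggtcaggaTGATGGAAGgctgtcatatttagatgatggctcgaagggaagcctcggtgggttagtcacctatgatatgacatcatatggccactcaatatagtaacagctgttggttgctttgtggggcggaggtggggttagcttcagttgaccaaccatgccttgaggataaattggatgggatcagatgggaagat
ASNS, chr7:97872409-97872658, minus strand: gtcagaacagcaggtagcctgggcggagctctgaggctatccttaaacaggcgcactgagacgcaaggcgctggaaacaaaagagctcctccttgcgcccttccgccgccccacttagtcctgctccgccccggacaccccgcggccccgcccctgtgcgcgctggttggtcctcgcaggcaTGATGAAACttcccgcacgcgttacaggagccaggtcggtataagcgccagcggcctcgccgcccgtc
The match lies -210 to -202 from the start in CHAC1, on the opposite strand, -191 to -183 in ATF3 and -68 to -60 in ASNS. The motif TGATGNAAN was searched on both strands from 250 bases before to 50 after the start. It was found in 4 of the 25 windows of the listed integrated stress response genes (16%), the 3 above and that of FGF21, which did not pass the filter on low counts, and in 1002 of all 27305 windows (3.67%). Among genes higher with Menthae Herba it was in 26 of 881 windows (2.95%), and among lower genes in 16 of 1140 (1.4%). A match in such a window is a description of the sequence and does not show binding.

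Of 30 listed integrated stress response genes, 29 passed the filter on low counts. Of these, 26 were higher with Menthae Herba and 1 lower, where 6% and 8.06% of all genes were, and the list's median log2 fold change was 1.42 beside -0.04 for all genes. In 24 of the 29 the Menthae Herba libraries lay wholly above those of Saposhnikoviae Radix, where 7.68% of all genes did. Whichever 1 of the 6 libraries was left out, 24 of the 26 stayed called. Without the 2 libraries rich in short transcripts 25 were higher, with a median of 1.44. The exception was ATF5, a factor of the ATF4 family, at 29.1, 29.5 and 43.7 CPM with Menthae Herba and 40.9, 70.1 and 38.1 with Saposhnikoviae Radix (-0.54, adjusted p = 0.0488). Its call was lost without Saposhnikoviae Radix replicate 2 and without Menthae Herba replicate 1 or 2 (highest adjusted p = 0.434). CEBPB (0.45) and STC2 (0.02) did not pass the test.

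**Figure D1:**
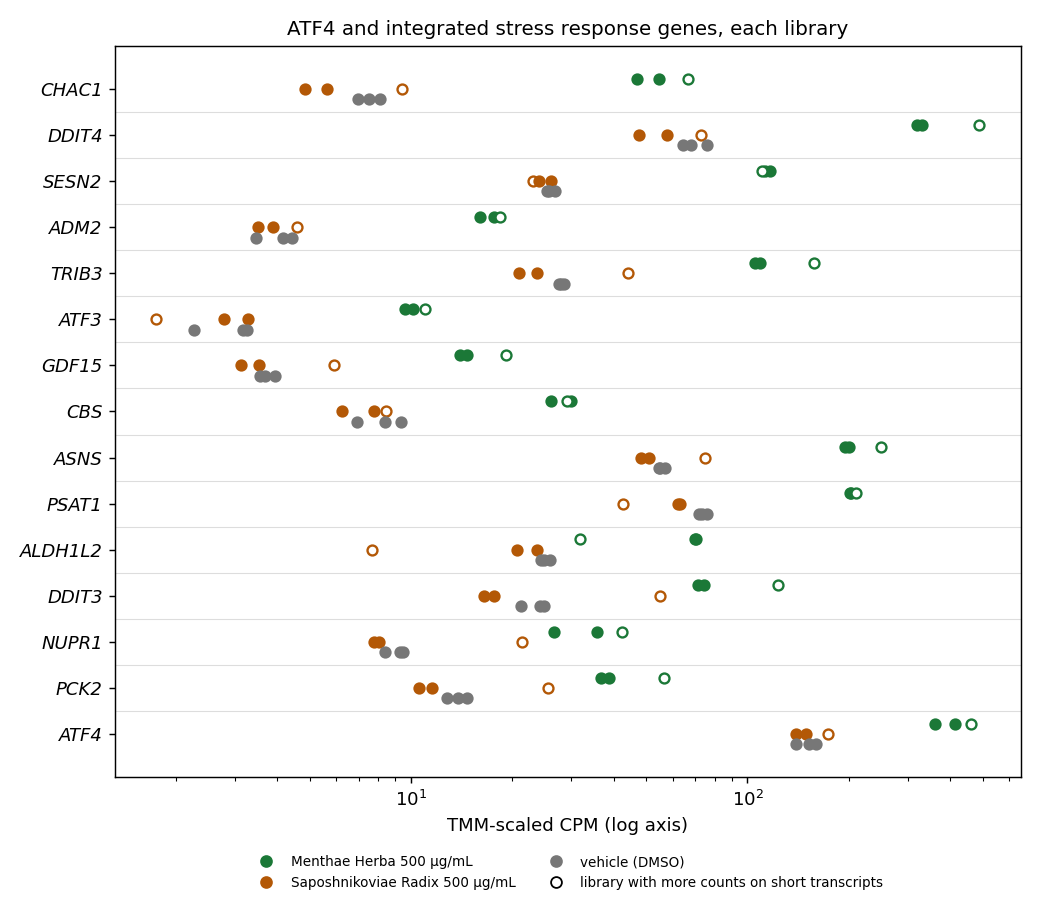
TMM-scaled CPM (log axis) of the 15 integrated stress response genes with the largest positive log2 fold change, 1 point per library, for Menthae Herba, Saposhnikoviae Radix and vehicle, with open points for the 2 libraries rich in short transcripts. In each row the 3 Menthae Herba libraries lie above the 3 Saposhnikoviae Radix libraries, and for DDIT3, NUPR1 and PCK2 the open Saposhnikoviae Radix point lies nearest to them.

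Inhibitors of growth signalling downstream of ATF4 were among the largest differences. DDIT4 (also REDD1, an inhibitor of mTORC1, chr10:72273920-72276036) was at 319.9, 330.3 and 488 CPM with Menthae Herba, 47.6, 72.7 and 57.5 with Saposhnikoviae Radix and 75.9, 64.4 and 67.9 with vehicle (log2 fold change 2.68, SE 0.20, adjusted p = 1.28e-13). SESN2, a leucine sensor that also restrains mTORC1 (chr1:28259527-28282491), varied little within groups, at 116, 112 and 110.2 CPM against 26.1, 23.1 and 24.04 (log2 fold change 2.21, SE 0.062, adjusted p = 5.87e-27). For both genes the Saposhnikoviae Radix libraries were at or below the highest vehicle library, and no Menthae Herba library overlapped either group. TRIB3, a pseudokinase that binds ATF4 and AKT, was at 109, 105 and 158 CPM against 23.7, 44.2 and 21.01 (log2 fold change 2.07, SE 0.18, adjusted p = 9.35e-12). PPP1R15A (GADD34), the phosphatase subunit that reverses eIF2alpha phosphorylation, was higher by less, at 149, 144 and 154 CPM against 96.3, 112 and 88.4 (log2 fold change 0.59, SE 0.10, adjusted p = 5.22e-05). Among secreted products, GDF15, a stress cytokine that acts on appetite through the hindbrain, was at 14.7, 14.02 and 19.2 CPM against 3.54, 5.93 and 3.12 (log2 fold change 1.95, SE 0.18, adjusted p = 5.32e-11). ADM2, a peptide hormone related to adrenomedullin, was at 16.1, 17.7 and 18.3 CPM against 3.89, 4.60 and 3.52 (log2 fold change 2.12, SE 0.14, adjusted p = 8.68e-15).

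Enzymes of amino acid and one-carbon metabolism were higher as well. ASNS, which makes asparagine, was at 194, 201 and 249.6 CPM with Menthae Herba and 51.04, 75.03 and 48.2 with Saposhnikoviae Radix (log2 fold change 1.89, SE 0.12, adjusted p = 6.95e-15). The serine synthesis enzymes PSAT1, PHGDH and PSPH had log2 fold changes of 1.88 (adjusted p = 3.71e-19), 1.19 (adjusted p = 2.57e-06) and 0.67 (adjusted p = 2.35e-06). PSAT1 was at 202, 203 and 209.9 CPM against 62.1, 42.5 and 62.9, and here the Saposhnikoviae Radix library rich in short transcripts was the lowest. Of the mitochondrial one-carbon enzymes, MTHFD2 (1.27), ALDH1L2 (1.72) and SHMT2 (0.68) were higher with adjusted p of 3.05e-10, 1.17e-05 and 1.10e-05. CBS and CTH, the enzymes of transsulfuration that lead from homocysteine to cysteine, differed by 1.93 (adjusted p = 9.08e-13) and 1.28 (adjusted p = 2.30e-07). For CBS the levels were 26.01, 29.8 and 29.1 CPM against 7.75, 8.44 and 6.24, and 8.37, 9.37 and 6.91 with vehicle, so the Saposhnikoviae Radix range overlapped that of vehicle and not that of Menthae Herba. In proline synthesis, PYCR1 was higher (0.78, adjusted p = 0.000321), with Saposhnikoviae Radix replicate 2 at 135 CPM inside the Menthae Herba range of 133 to 203.

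Genes of tRNA charging followed the same direction, and those of amino acid transport were mixed. Of 20 cytosolic aminoacyl-tRNA synthetases, the enzymes that join each amino acid to its tRNA, 12 were higher with Menthae Herba and 0 lower, with a median of 0.46 (all 20 passed the filter). In 10 of the 20 the Menthae Herba libraries lay wholly above. Of all genes 6% were higher and 8.06% lower, and 7.68% lay wholly above. Of the 12, 11 stayed called whichever 1 library was left out, and 13 were higher without the 2 libraries rich in short transcripts. The largest were GARS1, at 393, 441 and 371 CPM against 214, 124 and 220.5 (log2 fold change 1.11, SE 0.11, adjusted p = 2.56e-10), and AARS1, at 349, 355 and 353 against 184, 185 and 178 (log2 fold change 0.95, SE 0.054, adjusted p = 9.31e-17). Among the 8 that did not pass was HARS1 (-0.18). Of 16 tested amino acid transporters, 4 were higher and 2 lower, with a median of -0.07. SLC7A5, the large subunit of the exchanger for leucine and other large neutral amino acids, was at 384, 361 and 322 CPM against 190.5, 162 and 185 (log2 fold change 0.99, SE 0.076, adjusted p = 5.28e-13). SLC1A4, an exchanger of alanine, serine and cysteine, and SLC6A9, a glycine transporter, differed by 0.90 (adjusted p = 2.84e-13) and 0.52 (adjusted p = 3.98e-05), and SLC43A1, another carrier of large neutral amino acids, by 0.70 (adjusted p = 0.00596). Lower was the glutamate transporter SLC1A3 (GLAST), at 15.96, 14.2 and 10.2 CPM against 31.4, 15.7 and 31.8 (log2 fold change -0.97, SE 0.16, adjusted p = 2.15e-05). SLC7A8 was lower too (-0.80, adjusted p = 0.00736), but its call was lost without Menthae Herba replicate 3 or Saposhnikoviae Radix replicate 3 (highest adjusted p = 0.0737). SLC7A11, the cystine importer often counted among ATF4 targets, had a log2 fold change of -0.19 and did not pass (adjusted p = 0.648).

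**Figure D2:**
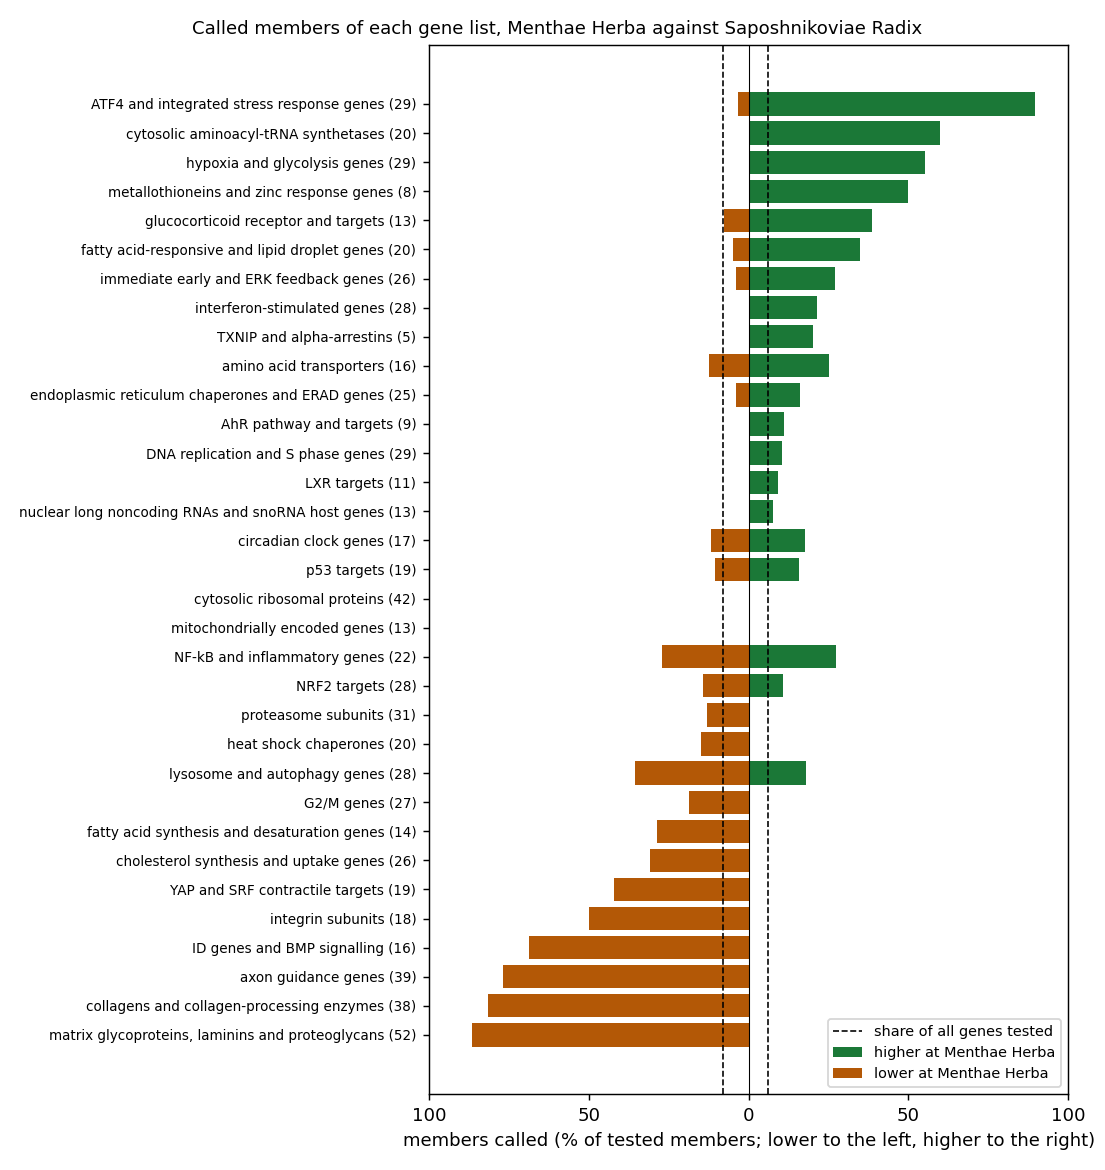
Percent of the tested members of each gene list (number tested in brackets) called higher with Menthae Herba, to the right, or lower, to the left, with dashed lines at the shares of all genes tested, 6% and 8.06%. Integrated stress response genes lead the right side with 26 of 29, and matrix glycoproteins with 45 of 52 and collagens with 31 of 38 lead the left.

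Genes that hypoxia raises were higher with Menthae Herba too, although oxygen was not varied in this study. The transcription factor HIF, stabilised when oxygen falls, raises glycolysis, glucose uptake and angiogenic signals, and several of its targets respond to other stresses as well. Of 29 listed genes, all tested, 16 were higher and 0 lower, where 6% and 8.06% of all genes were, and the median was 0.34. Without the 2 libraries rich in short transcripts 19 were higher, with a median of 0.51, and 12 of the 16 stayed called whichever 1 library was left out. NDRG1, a stress-responsive cytoplasmic protein, was at 198, 208 and 213 CPM with Menthae Herba, 55.8, 53.4 and 55.5 with Saposhnikoviae Radix and 60.2, 59.1 and 57.8 with vehicle (log2 fold change 1.91, SE 0.059, adjusted p = 8.62e-26). BNIP3, a receptor for the removal of mitochondria by autophagy, was at 249.5, 241 and 289 CPM against 89.8, 106 and 91.1 (log2 fold change 1.45, SE 0.10, adjusted p = 2.21e-14). In both genes the spread within each herb was small beside the gap between herbs. ALDOC, the brain-type aldolase, was at 17.1, 21.97 and 27.6 CPM against 5.25, 9.53 and 5.51 (log2 fold change 1.73, SE 0.16, adjusted p = 1.51e-10). VEGFA, the angiogenic growth factor, was at 524, 502 and 448 against 289.8, 203 and 288 (log2 fold change 0.92, SE 0.094, adjusted p = 1.13e-09). Hexokinase HK2 (1.01, adjusted p = 0.000586), the regulatory kinase PFKFB4 (0.95, adjusted p = 1.47e-10) and the glucose carriers SLC2A3 (0.72, adjusted p = 3.84e-07) and SLC2A1 (0.40, adjusted p = 5.38e-05) were higher. Of the enzymes of lower glycolysis, PGK1 (0.60, adjusted p = 0.000212) and LDHA (0.28, adjusted p = 0.00743) were higher, LDHA not without Menthae Herba replicate 3 (adjusted p = 0.0709), and GAPDH (0.16), ENO1 (0.13), PKM (-0.10) and TPI1 (-0.06) did not pass the test.

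Genes that respond to fatty acids and coat lipid droplets formed a smaller group, with 7 higher and 1 lower of 20 tested members out of 25 listed. Of all genes 6% were higher and 8.06% lower. The list's median was 0.15, and 7 were higher without the 2 libraries rich in short transcripts. ANGPTL4, a secreted inhibitor of lipoprotein lipase (chr19:8363289-8374373), was at 128, 111 and 185 CPM with Menthae Herba, 21.2, 52.1 and 22.7 with Saposhnikoviae Radix and 16.3, 11.8 and 13.6 with vehicle (log2 fold change 2.15, SE 0.21, adjusted p = 5.63e-10). Here both herbs lay above every vehicle library, by 3.35 and 1.20 on the log2 scale (adjusted p = 1.56e-14 and 0.000696), against the same vehicle libraries. PLIN2, the main coat protein of lipid droplets in most cells, was at 229, 237 and 256 CPM against 72.6, 63.98 and 74.3 (log2 fold change 1.78, SE 0.082, adjusted p = 1.40e-19). PDK4, a kinase that switches pyruvate dehydrogenase off, was low in all groups, at 5.15, 6.62 and 3.10 CPM against 1.39, 0.759 and 1.41 (log2 fold change 2.04, SE 0.30, adjusted p = 2.48e-06). HILPDA, an inhibitor of triglyceride breakdown, differed by 0.72 (adjusted p = 0.00574), but its call was lost without Menthae Herba replicate 3 or Saposhnikoviae Radix replicate 1 or 3 (highest adjusted p = 0.0681). CPT1A, the gate of fatty acid entry into mitochondria, was the lower member (-0.34, adjusted p = 0.00618), and its call was lost without Saposhnikoviae Radix replicate 2 (adjusted p = 0.0613).

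Chaperones of the endoplasmic reticulum, which follow the ATF6 and XBP1 arms of the unfolded protein response, were called in few cases. Of 25 tested genes, 4 were higher and 1 lower (median 0.04), beside 6% and 8.06% of all genes, and without the 2 libraries rich in short transcripts 5 were higher and 5 lower. HERPUD1, a membrane protein of endoplasmic reticulum-associated degradation, was at 178, 176 and 183 CPM with Menthae Herba, 56.5, 61.8 and 55.2 with Saposhnikoviae Radix and 85.4, 82.9 and 79.3 with vehicle (log2 fold change 1.63, SE 0.072, adjusted p = 3.31e-20). Relative to vehicle HERPUD1 differed by 1.12 with Menthae Herba (adjusted p = 2.48e-15) and by -0.51 with Saposhnikoviae Radix (adjusted p = 1.13e-05), so that the vehicle libraries lay between the herbs. XBP1 was at 211, 216 and 213 CPM against 116, 110 and 127 (log2 fold change 0.86, SE 0.10, adjusted p = 8.73e-09), and the co-chaperone DNAJB9 differed by 0.79 (adjusted p = 1.09e-07). HSPA5 (BiP), the main chaperone of the compartment, was at 3443, 2903 and 2522 CPM against 2275, 1418 and 2223 (log2 fold change 0.58, SE 0.10, adjusted p = 2.94e-05), with vehicle at 3416, 3537 and 3488. The other large chaperones HSP90B1 (-0.25), CALR (-0.0018), PDIA4 (0.13) and DNAJB11 (0.05) did not pass. ATF6, the sensor, was lower (-0.46, adjusted p = 0.00405), a call lost without Menthae Herba replicate 3 (adjusted p = 0.067).

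Metallothioneins, small proteins that bind zinc and copper, were higher in 4 of 8 tested genes of the metal response list, beside 6% of all genes. MT1E was at 21.7, 20.6 and 34.03 CPM against 6.18, 14.04 and 5.51 (log2 fold change 1.59, SE 0.28, adjusted p = 4.99e-05). MT1X was at 17.6, 18.3 and 26.6 against 5.66, 14.2 and 5.26 (log2 fold change 1.33, SE 0.24, adjusted p = 7.42e-05). MT1F, near its detection limit in Saposhnikoviae Radix, was at 1.06, 0.876 and 1.40 CPM against 0.104, 0.617 and 0.366 (1.65, adjusted p = 0.00309). MT2A was at 263, 288 and 425 CPM against 112, 318 and 139 (0.78, adjusted p = 0.0262), and its call was lost without Menthae Herba replicate 3 or Saposhnikoviae Radix replicate 1 or 3 (highest adjusted p = 0.162). These genes are short and near-identical in sequence, so that reads could be split between copies, and their highest Saposhnikoviae Radix library was in each case replicate 2, the one rich in short transcripts. The zinc exporter SLC30A1 (-0.15) and the factor MTF1 (0.11) did not pass the test.

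Most matrix genes tested were lower with Menthae Herba. Of 52 tested matrix glycoproteins, laminins and proteoglycans (55 listed), 45 were lower with Menthae Herba and 0 higher (median -0.94), and of 38 tested collagens and collagen-processing enzymes (39 listed), 31 were lower and 0 higher (median -0.80), where 8.06% of all genes were lower. Without the 2 libraries rich in short transcripts 44 and 29 were lower, with medians of -1.01 and -0.80, and 1 collagen, COL27A1, was higher. Whichever 1 library was left out, 33 of the 45 and 25 of the 31 stayed called. In 24 of the 52 and 22 of the 38 tested the Menthae Herba libraries lay wholly below those of Saposhnikoviae Radix, where 6.98% of all genes did. The median transcript lengths of the lists were 4409 and 4407 bases beside 2166 for all genes. Among all genes whose log2 CPM averaged 2 or more, with transcripts of 4000 bases or more, 14.1% were lower and 4.88% higher, beside 6.96% lower and 8.6% higher at 1000 to 2000 bases. Without the 2 libraries rich in short transcripts, these shares were 17.9% lower and 4.15% higher, beside 6.42% lower and 9.06% higher. The part of transcript length in the result was not tested beyond the fits without the 2 libraries and with the length slope as a covariate. In the covariate fit 48 of the 52 and 34 of the 38 were lower, beside 3261 of all 19366 genes. That fit called 34.5% of all genes in either direction.

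VCAN, the large chondroitin sulfate proteoglycan versican (chr5:83471465-83582303), was at 174, 112 and 46.3 CPM with Menthae Herba, 564, 197 and 563 with Saposhnikoviae Radix and 596, 703 and 738 with vehicle (log2 fold change -1.99, SE 0.33, adjusted p = 2.48e-05). The lowest library of each herb was the one rich in short transcripts, and Saposhnikoviae Radix replicate 2 lay just above the highest Menthae Herba library. HSPG2 (perlecan), a heparan sulfate proteoglycan of basement membranes (chr1:21822245-21937297), was at 103, 74.7 and 46.2 CPM against 425, 183 and 376 (log2 fold change -2.13, SE 0.27, adjusted p = 1.68e-07). CSPG4 (NG2), a proteoglycan of glial progenitors and many gliomas, was at 56.7, 42.00 and 33.04 CPM against 176, 129 and 167 (log2 fold change -1.84, SE 0.15, adjusted p = 1.50e-12), with vehicle at 200.4, 195 and 192. CEMIP, a protein needed for hyaluronan breakdown, was at 4.31, 3.60 and 2.02 CPM against 21.1, 5.41 and 20.8 (log2 fold change -2.26, SE 0.32, adjusted p = 1.20e-06). These 4 genes kept the groups apart in all 6 libraries. Fibronectin FN1, which integrins bind, did not: it was at 1552, 1107 and 488 CPM against 4068, 889 and 4015 (-1.51, adjusted p = 0.00117), with Saposhnikoviae Radix replicate 2 below 2 of the Menthae Herba libraries, and at -1.61 without the 2 libraries rich in short transcripts. Tenascin TNC (-1.88, adjusted p = 9.56e-06), fibrillin FBN1 (-2.004, adjusted p = 2.78e-05), HMCN1 (-2.30, adjusted p = 0.000121) and thrombospondin THBS1 (-1.41, adjusted p = 0.00241) also overlapped. Other matrix genes differed by less and without overlap. SPARC was at 1661, 1482 and 1550 CPM against 2113, 1727 and 2151 (-0.35, adjusted p = 5.62e-05), and TGFBI at 3035, 2700 and 2610 against 4658, 3983 and 4513 (-0.66, adjusted p = 4.43e-10). Decorin DCN was at 6.46, 6.53 and 7.02 against 9.49, 8.87 and 9.28 (-0.47, adjusted p = 0.000155).

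**Figure D3:**
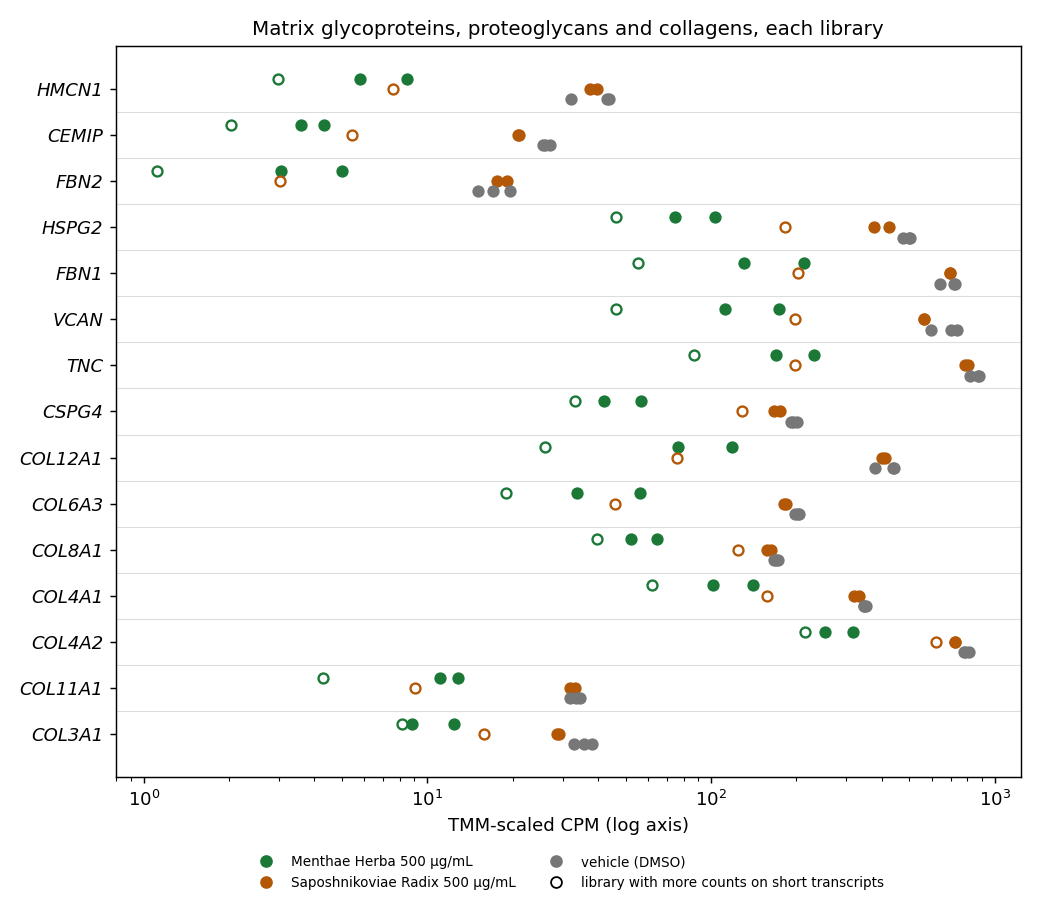
TMM-scaled CPM (log axis) of the 8 matrix glycoproteins or proteoglycans and the 7 collagens with the largest negative log2 fold change, 1 point per library, for Menthae Herba, Saposhnikoviae Radix and vehicle, with open points for the 2 libraries rich in short transcripts. The filled Menthae Herba points lie left of the filled Saposhnikoviae Radix points in each row, and the open Saposhnikoviae Radix point falls among the Menthae Herba points for some genes, such as HMCN1 and COL12A1.

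Among the collagens, COL1A1, the main chain of type I collagen, was at 1414, 1124 and 905 CPM with Menthae Herba, 3040, 2418 and 2917 with Saposhnikoviae Radix and 4124, 4134 and 3937 with vehicle (log2 fold change -1.28, SE 0.11, adjusted p = 1.51e-11). The basement membrane chains COL4A1 and COL4A2 differed by -1.42 (adjusted p = 5.48e-07) and -1.41 (adjusted p = 1.49e-14), and for COL4A2 the levels were 316, 253 and 214 CPM against 727, 623 and 726. COL8A1, a short-chain collagen, was at 64.5, 52.2 and 39.7 CPM against 163, 124 and 157 (log2 fold change -1.51, SE 0.11, adjusted p = 2.97e-13). COL12A1, with the most negative log2 fold change of the list (-2.01, adjusted p = 0.00048), overlapped, at 118, 76.3 and 25.98 CPM against 412, 76.03 and 402, and so did COL6A3 (-1.92, adjusted p = 1.54e-05). Of the enzymes, the lysyl oxidases LOXL3 (-1.07, adjusted p = 5.08e-11), LOXL2 (-0.75, adjusted p = 7.04e-08) and LOXL1 (-0.64, adjusted p = 0.000295), which cross-link collagen, and the lysyl hydroxylases PLOD3 (-0.64, adjusted p = 1.71e-06) and PLOD1 (-0.45, adjusted p = 3.40e-05) were lower. The prolyl hydroxylases P4HA1 (0.11) and P4HA2 (0.04), LOX (-0.38) and PLOD2 (-0.47) did not pass, and P4HA1 also stands in the hypoxia list.

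Receptors for the matrix and for guidance cues were lower as well. Integrins were lower in 9 of 18 tested subunits (median -0.78), beside 8.06% of all genes, and in 11 without the 2 libraries rich in short transcripts. ITGA3, a laminin receptor chain, was at 925, 804 and 747 CPM against 1564, 1519 and 1504 (log2 fold change -0.89, SE 0.077, adjusted p = 1.31e-11). ITGA5, the fibronectin receptor chain, was at 717, 629 and 628 against 1169, 1104 and 1145 (log2 fold change -0.79, SE 0.07, adjusted p = 2.16e-11). ITGA7 was at 26.01, 19.2 and 25.1 against 42.7, 48.8 and 41.00 (log2 fold change -0.91, SE 0.09, adjusted p = 4.13e-10). The shared beta chain ITGB1 overlapped, at 1199, 1020 and 653 CPM against 1973, 906 and 2011 (-0.77, adjusted p = 0.00125), and ITGA6 (-0.92, adjusted p = 0.026) lost its call without Menthae Herba replicate 2 or 3 or Saposhnikoviae Radix replicate 1 or 3 (highest adjusted p = 0.155). Of 39 tested axon guidance genes (42 listed), which steer growing neurites and also migrating glial cells, 30 were lower and 0 higher (median -0.72). This too stands beside 8.06% lower and 6% higher of all genes. Whichever 1 library was left out, 23 of the 30 stayed called. Among ligands, SEMA7A was at 35.4, 28.8 and 34.5 CPM against 71.9, 101 and 72.5 (log2 fold change -1.32, SE 0.10, adjusted p = 1.18e-13). SLIT3 was at 42.5, 35.5 and 22.3 against 115, 43.9 and 107 (log2 fold change -1.41, SE 0.21, adjusted p = 2.71e-06). Among receptors, the ephrin receptors EPHA2, at 124, 99.6 and 97.3 CPM against 276, 209 and 273 (log2 fold change -1.24, SE 0.083, adjusted p = 1.13e-14), and EPHB2 (-0.94, adjusted p = 1.24e-07) and the plexin PLXNB2 (-0.70, adjusted p = 3.11e-06) did not overlap. UNC5C, a netrin receptor, was at 1.10, 0.514 and 0.165 CPM against 3.51, 1.04 and 3.54 (-2.22, adjusted p = 2.46e-05), with Saposhnikoviae Radix replicate 2 inside the Menthae Herba range. ROBO2, a slit receptor, had 0 counts in the 3 Menthae Herba libraries and 5, 3 and 6 in those of Saposhnikoviae Radix (adjusted p = 0.00868), which, against a floor of 3 counts over the Menthae Herba group, made it at least 4.42-fold lower.

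Several of the most negative log2 fold changes belonged to genes outside these lists. TENM2, a teneurin that links neurons and other cells through latrophilins (chr5:167284799-168264157), was at 88.5, 64.8 and 27.9 CPM with Menthae Herba, 371, 232 and 349 with Saposhnikoviae Radix and 396, 438 and 437 with vehicle (log2 fold change -2.39, SE 0.27, adjusted p = 7.76e-09). CDH4 (R-cadherin, chr20:61252426-61940617) was at 24.3, 21.00 and 17.9 CPM against 76.4, 84.9 and 71.1 (log2 fold change -1.88, SE 0.087, adjusted p = 1.40e-19), and here the library rich in short transcripts was the highest of Saposhnikoviae Radix. LRP1, a large endocytic receptor, was at 86.3, 58.3 and 34.2 CPM against 246, 99.7 and 236 (log2 fold change -1.70, SE 0.28, adjusted p = 1.79e-05). NAALADL2, of unclear function, differed by -2.09 (adjusted p = 3.10e-10), and TENT5B, a noncanonical poly(A) polymerase, by -1.74 (adjusted p = 9.07e-09). PAPPA-AS1, an antisense transcript of the metalloprotease gene PAPPA, was at 2.49, 1.96 and 2.40 CPM against 4.93, 28.2 and 6.30 (-2.51, adjusted p = 4.70e-05), a value that rests on Saposhnikoviae Radix replicate 2, and was -1.36 without the 2 libraries rich in short transcripts (adjusted p = 0.0242). The libraries were directional, but the strand setting of the counting is not given in the sources used here, so that reads of PAPPA and its antisense cannot be told apart with certainty.

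Bone morphogenetic proteins (BMPs) signal through SMAD proteins to the ID genes, inhibitors of differentiation that are their classic early targets. Of 16 genes of this axis, all tested, 11 were lower with Menthae Herba and 0 higher (median -1.03), beside 8.06% and 6% of all genes. Without the 2 libraries rich in short transcripts 13 were lower (median -0.89), and 8 of the 11 stayed called whichever 1 library was left out. ID2 was at 11.7, 12.4 and 13.2 CPM with Menthae Herba, 27.9, 28.6 and 27.5 with Saposhnikoviae Radix and 27.2, 26.3 and 25.7 with vehicle (log2 fold change -1.17, SE 0.077, adjusted p = 9.11e-15). ID1 was at 178, 169.9 and 253 CPM against 296, 617 and 318 (log2 fold change -1.03, SE 0.20, adjusted p = 0.000229). ID3 was at 111, 118 and 159.8 against 221, 549 and 210.1 (log2 fold change -1.33, SE 0.20, adjusted p = 3.54e-06). Saposhnikoviae Radix replicate 2 was the highest library for ID1 and ID3, which are short, and without the 2 libraries rich in short transcripts the values were -0.83 and -0.92. ID4 differed by -1.09 (adjusted p = 0.000139). The ligand BMP4 was at 3.76, 4.23 and 5.78 CPM against 8.93, 15.9 and 9.14 (log2 fold change -1.30, SE 0.16, adjusted p = 4.10e-08). The feedback inhibitor SMAD6 was at 9.21, 9.34 and 8.67 against 19.6, 18.4 and 17.3 (log2 fold change -1.02, SE 0.10, adjusted p = 3.28e-10). The target ATOH8 was at 13.4, 13.5 and 18.7 against 27.7, 52.2 and 29.02 (log2 fold change -1.25, SE 0.17, adjusted p = 5.86e-07). The secreted antagonist NOG, at low levels of 0.718, 0.363 and 0.413 CPM against 1.43, 2.18 and 1.49, was lower too (log2 fold change -1.77, SE 0.23, adjusted p = 1.60e-07). Type I receptor BMPR1B, also low (-1.40, adjusted p = 0.00795), lost its call without Menthae Herba replicate 2 (adjusted p = 0.0897). The receptors BMPR1A (-0.38) and BMPR2 (-0.78) did not pass.

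Targets of YAP and of SRF, transcription regulators that respond to cell tension and the actin cytoskeleton, were lower in 8 of 19 tested genes (0 higher, median -0.43). Of all genes 8.06% were lower. All 8 stayed called whichever 1 library was left out. Without the 2 libraries rich in short transcripts 12 were lower. ANKRD1, a YAP target of cytoplasm and nucleus (chr10:90912096-90921276), was at 2.83, 2.99 and 3.43 CPM with Menthae Herba, 12.6, 17.03 and 11.9 with Saposhnikoviae Radix and 8.33, 9.12 and 10.1 with vehicle (log2 fold change -2.16, SE 0.16, adjusted p = 2.84e-13). The vehicle libraries, of another set, lay between the high-dose groups. Against the same vehicle libraries Menthae Herba differed by -1.57 (adjusted p = 9.66e-10) and Saposhnikoviae Radix by 0.59 (adjusted p = 0.0109). With Saposhnikoviae Radix the mean was 15.33 CPM at the low, 14.25 at the middle and 13.86 at the high dose, beside 9.18 with vehicle. It was thus no higher at the high dose than at the lower doses. With Menthae Herba the means were 13.85, 9.575 and 3.08 CPM in the same order. Whether the herb or the library set gave the 0.59 was not tested. CCN1 (CYR61), a secreted matricellular protein, was at 263, 204 and 174 CPM against 613, 389.7 and 542 (log2 fold change -1.27, SE 0.14, adjusted p = 4.66e-09). CCN2 (CTGF) was at 104, 75.6 and 67.8 against 162, 119 and 156 (log2 fold change -0.83, SE 0.13, adjusted p = 1.30e-05). Both also stand in the matrix list. The receptor tyrosine kinase AXL was at 408, 357 and 344 CPM against 689, 751 and 647 (log2 fold change -0.91, SE 0.076, adjusted p = 5.14e-12). Smooth muscle actin ACTA2 was at 60.4, 65.3 and 81.1 against 123, 149.9 and 119 (log2 fold change -0.92, SE 0.10, adjusted p = 1.71e-09). SRF itself differed by -0.43 (adjusted p = 8.08e-06).

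Genes of cholesterol uptake and synthesis, which the factor SREBP2 raises when membrane sterol falls, were lower in 8 of 26 (0 higher, median -0.29), beside 8.06% of all genes, and in 12 without the 2 libraries rich in short transcripts. SREBF2, the gene of that factor, was at 59.7, 56.8 and 50.97 CPM with Menthae Herba, 82.3, 58.3 and 80.8 with Saposhnikoviae Radix and 99.4, 102 and 107 with vehicle (log2 fold change -0.40, SE 0.082, adjusted p = 0.00037), with Saposhnikoviae Radix replicate 2 inside the Menthae Herba range. SQLE (-0.28), HMGCS1 (-0.09) and INSIG1 (-0.29) did not pass. In fatty acid synthesis 4 of 14 were lower, of which FADS2, a desaturase, did not overlap, at 44.9, 44.6 and 52.95 CPM against 60.2, 76.9 and 59.6 (log2 fold change -0.46, SE 0.08, adjusted p = 4.18e-05). The elongases ELOVL1 (-0.54, adjusted p = 0.00223), ELOVL5 (-0.49, adjusted p = 0.0188) and ELOVL6 (-0.44, adjusted p = 0.0281) each lost the call in at least 1 fit without a library (highest adjusted p = 0.0869, 0.154 and 0.192). ELOVL1 lost it without Saposhnikoviae Radix replicate 2. The other two lost it without Menthae Herba replicate 3 or Saposhnikoviae Radix replicate 1 or 3, and ELOVL6 also without Menthae Herba replicate 2.

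Inflammatory genes split, with 6 higher and 6 lower of 22 tested (24 listed, median -0.16), beside 6% and 8.06% of all genes. Interleukin IL6, at 10.6, 10.3 and 8.05 CPM with Menthae Herba, 4.79, 5.12 and 4.33 with Saposhnikoviae Radix and 3.42, 3.41 and 3.82 with vehicle (log2 fold change 1.02, SE 0.16, adjusted p = 5.86e-06), was higher. IL1A (1.32, adjusted p = 0.000118) and IL1B (0.68, adjusted p = 0.000496) were higher too, as were the chemokines CXCL2 (1.26, adjusted p = 0.000196) and CXCL3 (1.15, adjusted p = 0.00587). IL1A and CXCL2 were low, at means of 2.42 and 1.83 CPM with Menthae Herba and 0.96 and 0.78 with Saposhnikoviae Radix. IL11, of the IL6 family, was higher (0.57, adjusted p = 0.00465), a call lost without Menthae Herba replicate 3 (adjusted p = 0.0762). Lower were the macrophage growth factor CSF1, at 89.2, 83.01 and 64.8 CPM against 213, 143 and 196 (log2 fold change -1.22, SE 0.12, adjusted p = 1.85e-10), and the monocyte chemokine CCL2, at 5.03, 5.08 and 6.48 against 11.3, 11.6 and 9.79 (log2 fold change -0.98, SE 0.14, adjusted p = 1.07e-06). So were BIRC3 (-0.94, adjusted p = 5.22e-05) and the adhesion receptor ICAM1 (-0.40, adjusted p = 6.55e-05). VCAM1 (-1.16, adjusted p = 0.00965) and LIF (-0.23, adjusted p = 0.0301) were lower as well, but VCAM1 lost its call without Saposhnikoviae Radix replicate 3 (adjusted p = 0.0671) and LIF without Menthae Herba replicate 1 or 2 or Saposhnikoviae Radix replicate 1 or 3 (highest adjusted p = 0.132). The feedback inhibitors NFKBIA (-0.17) and TNFAIP3 (-0.26), which NF-kB itself raises, and CXCL8 (-0.14) did not pass the test. Of 28 interferon-stimulated genes, 6 were higher and 0 lower (median 0.26), again beside 6% and 8.06% of all genes. Whichever 1 library was left out, 3 of the 6 stayed called. These 3 were STAT2, at 43.7, 46.3 and 45.5 CPM against 32.2, 27.4 and 32.3 (log2 fold change 0.56, SE 0.08, adjusted p = 1.72e-06), MX2 (0.995, adjusted p = 0.000262) and IRF9 (0.62, adjusted p = 0.00143). XAF1, at 27.5, 30.1 and 18.5 CPM against 18.03, 1.85 and 16.9, differed by 1.03 (adjusted p = 0.0308), a call lost without Saposhnikoviae Radix replicate 2 or Menthae Herba replicate 1 or 2 (highest adjusted p = 0.133).

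Immediate early genes and ERK feedback genes were higher in 7 and lower in 1 of 26, beside 6% and 8.06% of all genes. DUSP1, a phosphatase of MAP kinases that glucocorticoids also raise, was at 72.8, 60.2 and 71.3 CPM against 41.4, 44.5 and 41.5 (log2 fold change 0.68, SE 0.072, adjusted p = 2.48e-09). JUND was at 53.8, 50.4 and 51.3 against 28.9, 32.3 and 27.9 (log2 fold change 0.80, SE 0.20, adjusted p = 0.00351). FOSL1 was the lower member, at 168, 187 and 151 CPM against 316, 268 and 294 (log2 fold change -0.79, SE 0.16, adjusted p = 0.000311), with no overlap. ERK-induced DUSP6 (0.52, adjusted p = 0.00162) was higher, whereas EGR1 (-0.08), SPRY2 (0.21) and SPRY4 (-0.07) did not pass. Of 13 tested glucocorticoid receptor targets 5 were higher and 1 lower, beside the same shares of all genes. TSC22D3 (GILZ) was at 23.1, 21.4 and 28.04 CPM against 14.1, 14.1 and 16.3 (log2 fold change 0.70, SE 0.11, adjusted p = 6.13e-06), and the other higher members were DUSP1, ANGPTL4 and MT2A, described above, and KLF9 (0.59, adjusted p = 0.0324). SGK1 was lower (-0.26, adjusted p = 0.0314). KLF9 lost its call without Menthae Herba replicate 1 or 2 or Saposhnikoviae Radix replicate 2 (highest adjusted p = 0.217) and SGK1 without Menthae Herba replicate 2 or 3 or Saposhnikoviae Radix replicate 1 or 3 (highest adjusted p = 0.262). FKBP5 (0.12) and PER1 (-0.06), both direct targets, did not pass.

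Other stress and growth lists are described by their counts of called members, where 6% of all genes were higher and 8.06% lower, or 14.1% called. Near that last share were DNA replication genes (10.3% called), AhR genes (11.1%), proteasome subunits (12.9%) and heat shock chaperones (15%). The share was 18.5% for G2/M genes, 25% for NRF2 targets, 26.3% for p53 targets and 53.6% for lysosome and autophagy genes. NRF2 targets, the antioxidant and detoxification genes, were higher in 3 and lower in 4 of 28 (median 0.03), of which SRXN1 (0.41, adjusted p = 8.95e-05) and ABCC1 (-0.83, adjusted p = 0.000469) stayed called whichever 1 library was left out. NQO1 (0.20), GCLM (-0.17) and TXNRD1 (-0.18) did not pass between the herbs. Against the same vehicle libraries, which belong to another set, 16 NRF2 targets were higher with each herb, with medians of 0.49 and 0.52. Of all genes 11.1% were higher with Menthae Herba and 8.61% with Saposhnikoviae Radix. The list's summed level was 7150 to 9728 CPM, 6164 to 10900 CPM and, with vehicle, 5224 to 5479 CPM. Its counts against vehicle without the 2 libraries rich in short transcripts are not given here. The antioxidant response element TGACNNNGC was in 6 of 20 windows of this list (30%) and in 13.6% of all windows. Of 9 tested genes of the AhR pathway, which responds to planar aromatic ligands, 1 was higher, NFE2L2 (0.43, adjusted p = 0.00362), and CYP1A1 (0.65) and CYP1B1 (-0.11) did not pass. The xenobiotic response element TNGCGTG was in 3 of 10 windows of the AhR list (30%) and in 5.51% of all windows. Heat shock chaperones were lower in 3 of 20, HSPA8 (-0.42, adjusted p = 8.82e-06), HSPB8 (-0.70, adjusted p = 4.34e-08) and HSP90AB1 (-0.32, adjusted p = 0.000205). Proteasome subunits were lower in 4 of 31, among which PSMD11 (-0.37, adjusted p = 1.30e-05) and PSMD1 (-0.41, adjusted p = 0.00093) stayed called whichever 1 library was left out. G2/M genes were lower in 5 of 27, of which only PLK1 (-0.42, adjusted p = 0.00111) stayed called in each such fit. DNA replication genes were higher in 3 of 29, among them POLE2 (0.45, adjusted p = 0.000193) and CDC6 (0.41, adjusted p = 0.00204). Of 19 tested p53 targets 3 were higher and 2 lower. BBC3 (PUMA), a promoter of apoptosis, was at 1.60, 1.51 and 2.15 CPM against 0.521, 0.569 and 0.45 (log2 fold change 1.77, SE 0.34, adjusted p = 0.000172), while CDKN1A (0.32) and MDM2 (0.27) did not pass. Lysosome and autophagy genes were lower in 10 and higher in 5 of 28. The autophagy genes WIPI1, at 41.2, 45.96 and 46.7 CPM against 28.04, 28.4 and 28.04 (log2 fold change 0.66, SE 0.072, adjusted p = 3.61e-09), MAP1LC3B (0.36, adjusted p = 0.000437) and ULK1 (0.47, adjusted p = 0.000242) were higher. Lower were the lysosomal proteins LAMP1, at 345, 307 and 350.2 against 479, 538 and 468 (log2 fold change -0.57, SE 0.082, adjusted p = 1.71e-06), and CTSB (-0.33, adjusted p = 0.00329). The edgeR test called 0 of 13 mitochondrially encoded genes and 0 of 42 ribosomal protein genes (1 gene in each list at an unadjusted p under 0.05, and 1 and 0 called by DESeq2). When the 4 libraries not rich in short transcripts were fitted alone, 27 of the 42 ribosomal protein genes were higher, beside 2223 of 16549 genes in that fit.

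**Figure D4:**
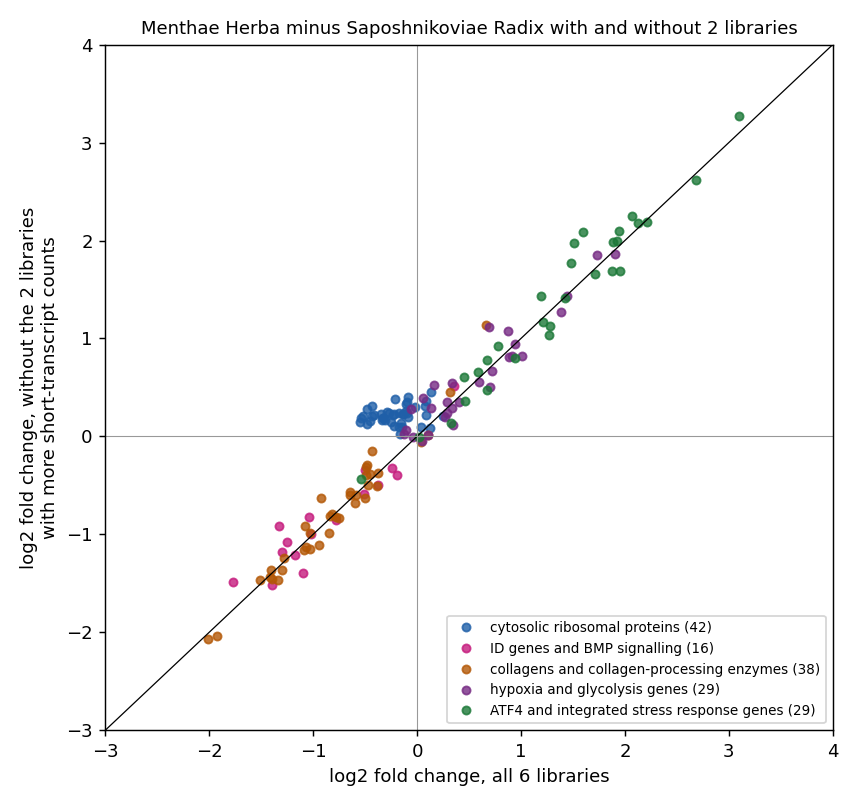
Log2 fold change of Menthae Herba over Saposhnikoviae Radix with all 6 libraries (x axis) and without the 2 libraries rich in short transcripts (y axis) for the tested members of 5 lists, 1 point per gene, with the line of equal values. Integrated stress response genes and collagens lie along the line, while the short ribosomal protein genes shift upward together, from a median of -0.19 to 0.22.

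Few or no genes were called between the herbs at the lower doses in the main fit. At 100 µg/mL, 4 of 19366 genes were called (0.0207%), all higher with Menthae Herba (2 or 3 genes with any 1 library left out), and 414 had an unadjusted p under 0.05. NDRG1 was at 84.8 ± 1.72 CPM with Menthae Herba and 53.8 ± 1.58 with Saposhnikoviae Radix (SD, n = 3; log2 fold change 0.66, edgeR adjusted p = 8.98e-10). BNIP3 was at 147 ± 6.76 against 102 ± 1.96 CPM (SD, n = 3; 0.52, edgeR adjusted p = 0.0204). ZNF395, a transcription factor induced by hypoxia, was at 79.5 ± 3.17 against 59.1 ± 1.55 (0.43, edgeR adjusted p = 0.00124). The remaining one was a transcribed pseudogene without a symbol on chromosome 7, ENSG00000253882 (0.56, edgeR adjusted p = 0.0194). All 4 were also higher at the high dose, where ZNF395 differed by 0.80 (adjusted p = 5.28e-12). CHAC1 did not pass the test at 100 µg/mL, with 7.10 ± 0.926 against 6.48 ± 0.133 CPM (SD, n = 3; 0.13, edgeR adjusted p = 1). By edgeR 0 of the 29 integrated stress response genes were called there, with a median of 0.15. ANKRD1 was at 9.57 ± 0.371 against 14.2 ± 0.306 CPM (SD, n = 3; -0.57, edgeR adjusted p = 0.554). At 20 µg/mL edgeR called 0 genes, while 6358 had an unadjusted p under 0.05 and DESeq2 called 23. Saposhnikoviae Radix replicates 2 and 3 at this dose were rich in short transcripts, with slopes of -0.30 and -0.50, and without replicate 1, which leaves those 2, 6110 genes were called. The change from the low to the high dose differed between the herbs in 2235 genes (11.5%, a test of the difference itself), 877 more positive with Menthae Herba (4.53%) and 1358 more negative (7.01%). This count was 8418 without Saposhnikoviae Radix high-dose replicate 2, 1362 without Menthae Herba high-dose replicate 3 and 1402 without Saposhnikoviae Radix low-dose replicate 3. Among them were 22 of the 29 integrated stress response genes, all more positive, and 27 of the 38 collagens and 36 of the 52 matrix glycoproteins, all more negative.

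**Figure D5:**
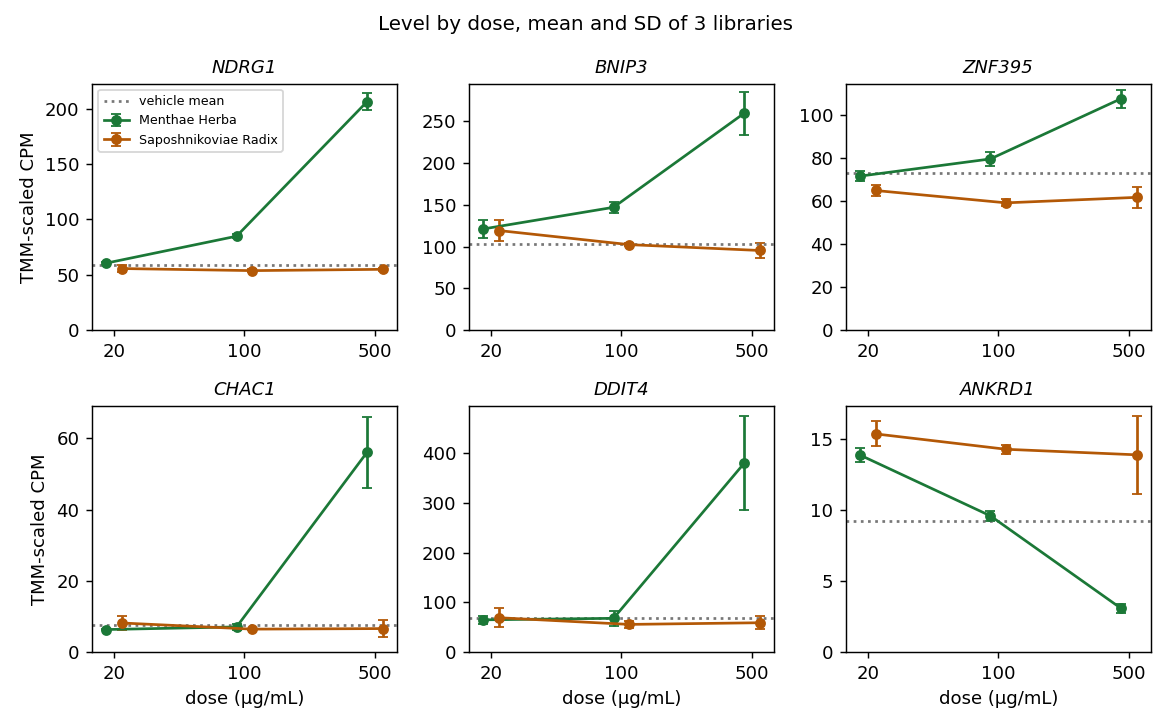
Mean TMM-scaled CPM with SD of 3 libraries (linear axis from 0) of 6 genes at 20, 100 and 500 µg/mL of each herb, with a dotted line at the vehicle mean. NDRG1, BNIP3 and ZNF395 separate at 100 µg/mL, where they were called, CHAC1 and DDIT4 stand apart at 500 µg/mL, and ANKRD1 at 500 µg/mL was 3.08 CPM with Menthae Herba and 13.9 with Saposhnikoviae Radix.

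Set against the same 3 vehicle libraries, Menthae Herba had 2152 genes higher (11.1%) and 2273 lower (11.7%), or 22.8% of all tested. Saposhnikoviae Radix had 1667 (8.61%) and 785 (4.05%), or 12.7%. Without the 2 libraries rich in short transcripts Menthae Herba had 21.8% called (9.66% higher, 12.2% lower) and Saposhnikoviae Radix, left with replicates 1 and 3, had 3.74%. The integrated stress response list was at a median of 1.35 (log2) with Menthae Herba, with 24 of 29 higher, and of -0.01 with Saposhnikoviae Radix, with 0 higher and 1 lower. For collagens the medians were -0.91 (33 of 38 lower) and -0.20 (5 lower), for matrix glycoproteins -1.14 (47 of 52 lower) and -0.30 (5 lower), and for the ID and BMP genes -0.96 (12 of 16 lower) and -0.02 (0 called). Proteasome subunits showed the opposite order, with a median of 0.34 and 5 of 31 higher with Menthae Herba, and of 0.57 and 24 higher with Saposhnikoviae Radix. This list is short, with a median transcript length of 1467 bases beside 2166 for all genes. Its summed level was 4898 to 7029 CPM, 5284 to 9232 CPM and, with vehicle, 4600 to 4866 CPM. Between the herbs its median went from -0.25 to -0.12 without the 2 libraries rich in short transcripts. Its counts against vehicle without them are not given here. Because the vehicle libraries and the herbs differ in library set, and both comparisons share the vehicle, these values are given side by side and not as separate evidence.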

How the data were processed

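Messenger RNA of SW1783 cells was sequenced as directional libraries with 100 bp paired-end reads, per the labels' protocols. The deposited values are expected counts per gene, not normalized. The submitters' processing notes list RSEM 1.3.3, FastQC 0.11.9, STAR 2.7.3a, GRCh38 and Trim Galore 0.6.5 without their roles. The annotation release and strand setting are not given in the sources used here. Vehicle was 0.1% DMSO per the sample labels, while the series' design text gives more, which could not be settled. Low-RNA libraries had been dropped before deposit, per the labels.

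Expected counts of the 60 libraries were rounded and fitted together in edgeR 4.0.16 (R 4.3.3): filterByExpr (minimum count 10, total 15), TMM, robust quasi-likelihood, a mean per group, 35 residual degrees of freedom, two-sided tests, Benjamini-Hochberg over 19366 genes, called under 0.05. The SE comes from the quasi-likelihood F. Symbols matched 41209 of 60675 identifiers (67.9%), and positions and lengths came from GENCODE 29. The length slope used 10336 genes averaging 3 or more in log2 CPM (prior count 2). Named were the 12 largest differences in each direction among genes called with and without the 2 libraries rich in short transcripts, averaging 2 or more in log2 CPM and with groups apart, and the 2 called members of each of 33 lists with the largest difference. Other list members were named after their values were seen. Members and lists were chosen with earlier results of these data known, and 2 listed symbols did not match. Marker lists numbered 7. Some genes that the rule names or the lists hold are not reported here one by one, but are in the counts. Promoter windows are the first listed per gene.

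Alternatives were RLE size factors, DESeq2 1.42.0, no filter, the compared groups alone, a replicate block, the length slope as a covariate, each library left out, and both libraries rich in short transcripts left out. Chosen after seeing the data were the 3 Okbyeongpung-san doses (1 library each) as 1 group, the fit of 4 high-dose libraries, and leaving out also the 2 such libraries of the low dose.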

Additional observations from a re-analysis of the deposited data

Results flagged for a closer look

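The change from 20 to 500 µg/mL differed between the herbs in 2235 genes by a test of that difference (edgeR's quasi-likelihood test, adjusted p under 0.05), and the 23 genes given here, named for the largest differences at the high dose, were among them. Each value that follows is the log2 change from low to high dose with Menthae Herba minus that with Saposhnikoviae Radix. The values of the genes higher at the high dose were CHAC1 3.46, DDIT4 2.77, GDF15 2.53, ATF3 2.35, TRIB3 2.30 and CBS 2.29, followed by ANGPTL4 2.27, SESN2 2.13, ASNS 2.03, ADM2 2.00, NDRG1 1.79 and PSAT1 1.75. Those of the lower genes were TENM2 -3.04, CEMIP -3.03, VCAN -2.87, HSPG2 -2.72, NAALADL2 -2.43 and LRP1 -2.34, followed by CSPG4 -2.15, ANKRD1 -2.02, PAPPA-AS1 -2.02, CDH4 -1.84 and TENT5B -1.32. The genes were named because they differed at the high dose, so that their presence here is not separate evidence. Saposhnikoviae Radix replicate 2 at the high dose and replicates 2 and 3 at the low dose were rich in short transcripts, as was Menthae Herba replicate 3 at the high dose, and without these 4 libraries 1720 genes were called.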

How the results depend on the processing

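Fold changes kept their direction in every alternative run for the 74 named genes, and DESeq2 and the fit adjusting for the length slope also kept all 74 called, whereas the fit of the 6 libraries alone ended 73 calls, and 14 named genes lost the call in at least 1 fit without a library. The counts moved more. Genes higher at the high dose numbered 1162, and 713 with no filter on low counts, 0 in a fit of the 2 groups alone, 3415 with that adjustment, and 2223 in a fit of the 4 libraries not rich in short transcripts. Genes lower numbered 1560, and 995, 0, 3261 and 2814 in the same order. With 1 library left out they ran from 848 to 2162 and from 1147 to 2319, the highest without Saposhnikoviae Radix replicate 2. At 100 µg/mL the 4 genes became 13 with DESeq2, 1 with no filter, 58 in a fit of the 2 groups alone, 37 with the length adjustment, 2 with the Okbyeongpung-san doses as 1 group, and 2 to 3 with 1 library left out. At 20 µg/mL the 0 genes became 23 with DESeq2 and 0 to 6110 with 1 library left out, 6110 without Saposhnikoviae Radix replicate 1, which leaves 2 libraries rich in short transcripts. The 2235 genes whose change from low to high dose differed between the herbs became 1206 with no filter, 60 in a fit of the 4 groups alone, 4631 with the length adjustment, 5540 without the 2 high-dose libraries rich in short transcripts and 1362 to 8418 with 1 library left out. The highest of these was without Saposhnikoviae Radix high-dose replicate 2, and the lowest without Menthae Herba high-dose replicate 3. The count of 1402, without Saposhnikoviae Radix low-dose replicate 3, was also more than 1.5 times lower. The cause of these shifts was not tested.

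Replicate numbers were not taken to pair the samples, since same-numbered libraries of the 2 herbs had deviations correlated at r = 0.51, -0.53 and -0.66, and not every library correlated best with its own number. With a replicate block the counts were 1141 higher and 1431 lower at 500 µg/mL, 3 at 100 µg/mL, 0 at 20 µg/mL and 2037 for the difference in dose response. Depth limits genes under about 1 CPM, such as ROBO2 and ABCG1, where a few counts decide a value.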

Other observations

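Circadian clock genes were called in both directions, with 3 higher and 2 lower of 17 tested, beside 6% and 8.06% of all genes. BMAL1, the activator of the clock, was at 10.5, 10.8 and 7.81 CPM with Menthae Herba and 6.12, 2.47 and 5.79 with Saposhnikoviae Radix (log2 fold change 1.001, SE 0.17, adjusted p = 4.13e-05), and NPAS2, a paralogue of CLOCK that pairs with BMAL1, was higher by 0.88 (adjusted p = 2.32e-05). RORA, which activates BMAL1, differed by 0.82 (adjusted p = 0.0163), a call lost without Menthae Herba replicate 1 or 2 or Saposhnikoviae Radix replicate 2 (highest adjusted p = 0.134). The output factors DBP, at 3.42, 3.23 and 4.54 CPM against 5.42, 12.00 and 5.48 (log2 fold change -1.02, SE 0.23, adjusted p = 0.00166), and HLF, at 4.35, 3.60 and 2.69 against 8.93, 3.98 and 8.29 (log2 fold change -1.01, SE 0.18, adjusted p = 9.07e-05), were lower, DBP not without Saposhnikoviae Radix replicate 2 (adjusted p = 0.0564). PER1 (-0.06), PER2 (0.12) and NR1D1 (0.25) did not pass the test.

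Of 13 nuclear long noncoding RNAs and small nucleolar RNA host genes, 1 was called, where 14.1% of all genes were. NEAT1, the scaffold of paraspeckles, was at 884, 791 and 691 CPM with Menthae Herba, 473, 513 and 383 with Saposhnikoviae Radix and 394, 362 and 363 with vehicle (log2 fold change 0.79, SE 0.13, adjusted p = 3.14e-05). MALAT1, its neighbour on chromosome 11, was at 0.11 and did not pass. Of 11 LXR targets, ABCG1 alone was called (1.61, adjusted p = 0.0108), at under 1 CPM, and lost the call without Saposhnikoviae Radix replicate 1 (adjusted p = 0.0519), while ABCA1 was at -0.06. TXNIP was at -0.17, and of the alpha-arrestins ARRDC3 was called (0.60, adjusted p = 0.0472), a call lost without Menthae Herba replicate 1 or 2 or Saposhnikoviae Radix replicate 2 (highest adjusted p = 0.269).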
